A study of Mus musculus with 8 samples.

Results

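Genes of pericytes and vascular smooth muscle, the mural cells that wrap brain blood vessels, were followed in the forebrain of mice with intact and with depleted microglia. The genes were 36 symbols chosen by name, 19 of the pericyte class and 17 of the contractile smooth muscle class, out of the 53278 symbols of the count table. All 36 had a row and all passed the filter on low counts, which left 20140 genes to test. Bulk RNA of the whole forebrain was sequenced from 8 male C57BL/6J mice of 10 to 20 weeks of age, 1 library per mouse. The 4 depleted mice ate food with PLX3397, an inhibitor of the CSF1R kinase that microglia need to survive, for 9 days; the 4 animals of the control group had control food. No transgene or mutant allele is named for either group. PLX3397 reaches every tissue and can also inhibit other kinases, and no group received the inhibitor with microglia kept, so microglial loss and other effects of the drug cannot be told apart. The series title concerns microglia, the enzyme CD39 and cerebral blood flow, and the mural cells are the cells that set vessel diameter.

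Pericytes sit in the basement membrane of capillaries and depend on PDGF-B, which endothelial cells release and which the receptor PDGFR-beta on the pericyte binds. Smooth muscle cells ring the arterioles and shorten through actin and myosin when calcium activates myosin light chain kinase. Notch3 and an ATP-sensitive potassium channel are shared by the 2 cell types, and serum response factor with its coactivator myocardin drives the contractile genes.

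Libraries held 48455538 to 68406688 counts. Csf1r stood at 51.6, 65.0, 58.8 and 59.0 CPM (counts scaled to a common library total, here with TMM factors that even out composition) in control mice 1 to 4 and at 1.14, 0.386, 1.66 and 1.69 CPM in depleted mice 1 to 4, so every library matched its label. Of 14 microglial marker genes 14 fell. The mean log2 CPM of 9 striatal neuron genes was higher in depleted mice (7.45 ± 0.90) than in control mice (5.99 ± 1.06, SD, n = 4 each). In edgeR 0 of 9 were past the test and 8 had an unadjusted p under 0.05, against 11.0% of all genes tested. Control mice 2 and 3 and depleted mice 2 and 3 held 1249 to 2081 counts of the hypothalamic gene Hcrt, and the other 4 mice held 4 to 12. Libraries thus differed in genes restricted to single brain regions, and values that touch a mural gene are given beside it.

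No mural gene passed the test for a difference between depleted and control forebrains. Of the 36 members, 0 had an adjusted p under 0.05 in edgeR's quasi-likelihood test over all 20140 genes, where 1.16% of genes were called (1.11% lower and 0.0546% higher). Adjusted p-values of the members ran from 0.229 to 0.999. At an unadjusted p under 0.05 there were 2 members, Mcam and Zic1, where 11.0% of all genes lay below that value. Limma-voom called 0 members and DESeq2 called 1, Mcam. Over all 20140 genes limma-voom called 225 lower and 9 higher, and DESeq2 called 346 lower and 118 higher. The 17 defining markers of the 2 classes were present in every library of both groups. In bulk RNA, fewer mural cells and less RNA per mural cell cannot be told apart.

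For most members the interval of the difference left out a 2-fold change. The 95% interval of the log2 fold change, depleted minus control, lay within -1 and 1 (a 2-fold change either way) for 34 of 36 members; Zic1 and Kcnmb1 were the exceptions. It lay within -0.5 and 0.5 (1.41-fold) for 15 members. The median half-width was 0.33 for the pericyte class and 0.42 for the contractile class. The narrowest was that of Rgs5 and the widest that of Zic1.

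**Figure D1:**
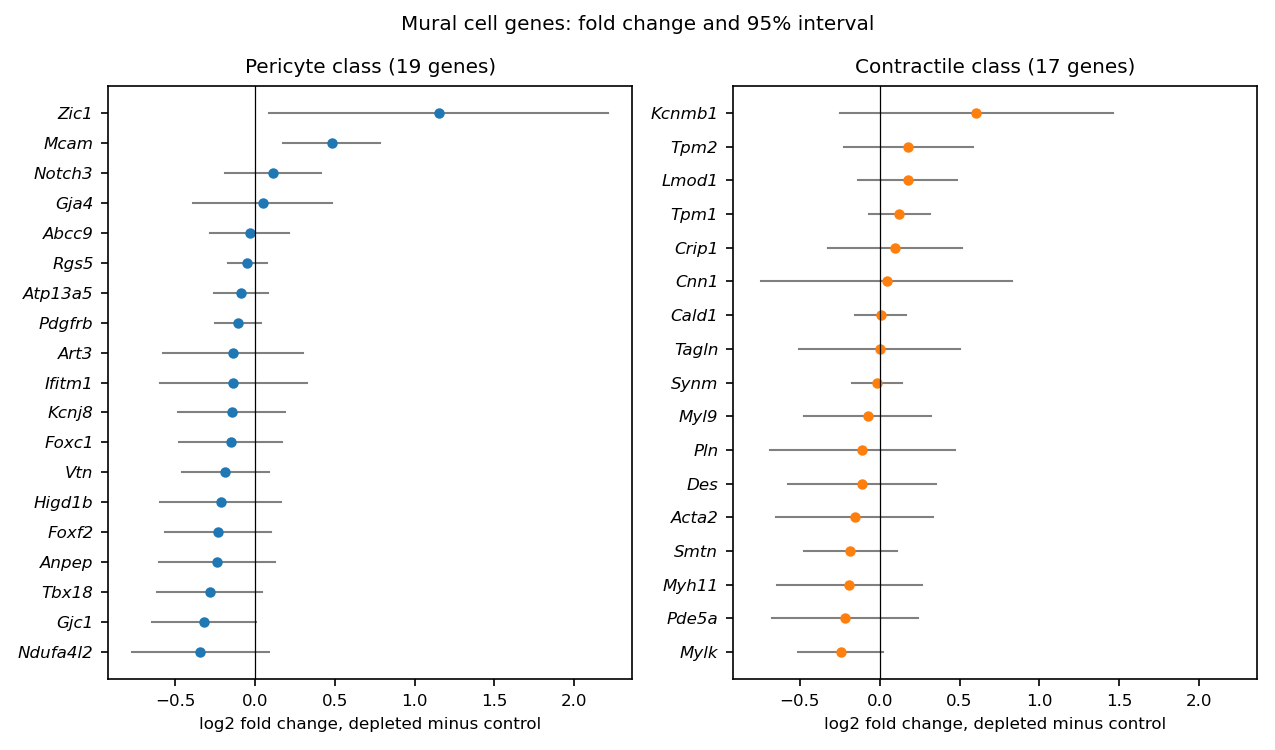
Log2 fold change of the 36 members, depleted minus control (points, horizontal axis), with the 95% interval of edgeR's model (grey lines), for the pericyte class (left) and the contractile class (right). The interval holds 0 for all members except Zic1 and Mcam, which are to the right of it.

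Of the receptor and signalling genes of the pericyte class, Pdgfrb and Rgs5 varied little between mice and Notch3 more. Pdgfrb, the receptor gene through which endothelial PDGF-B keeps pericytes on the vessel (chromosome 18, 61045150 to 61085061, mm10), stood at 24.4, 23.6, 21.2 and 22.0 CPM in control mice 1 to 4 and at 21.1, 21.3, 21.6 and 20.8 CPM in depleted mice 1 to 4. The depleted mice were close together and overlapped only control mouse 3 (log2 fold change -0.10, SE 0.06, 95% interval -0.25 to 0.04, adjusted p = 0.612). Rgs5 encodes a regulator of G-protein signalling and is a widely used pericyte marker (chromosome 1, 169655501 to 169695813). It stood at 90.5, 89.6, 90.4 and 86.3 CPM in control mice, and at 87.6, 81.4, 84.2 and 91.9 CPM in the depleted group. The groups overlapped, with a log2 fold change of -0.05 (95% interval -0.17 to 0.07, adjusted p = 0.806), the tightest interval of the 36. Notch3, the mural Notch receptor gene, stood at 17.3, 20.2, 18.2 and 12.8 CPM in control mice, and 16.6, 17.7, 21.1 and 18.8 CPM in the depleted group. Control mouse 4 was the lowest of the 8 (log2 fold change 0.11, SE 0.14, adjusted p = 0.819).

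The ATP-sensitive potassium channel, which relaxes mural cells when cell energy is low, is built from the pore subunit of Kcnj8 and the sulfonylurea receptor of Abcc9, neighbouring genes on chromosome 6. Kcnj8 stood at 3.47, 3.42, 2.65 and 2.42 CPM in control mice, and 2.52, 2.73, 2.80 and 2.76 CPM in the depleted group. Control mice 1 and 2 were high and the depleted mice lay within the control range (log2 fold change -0.15, SE 0.15, adjusted p = 0.783). Abcc9 stood at 7.14, 6.98, 8.31 and 9.12 CPM in control mice, and 8.45, 7.22, 7.82 and 7.32 CPM in the depleted group (log2 fold change -0.03, SE 0.11, adjusted p = 0.946). The subunits did not follow each other among control mice: the ratio of Abcc9 to Kcnj8 CPM was 2.06 and 2.04 in control mice 1 and 2 but 3.14 and 3.76 in control mice 3 and 4. In depleted mice it ran from 2.65 to 3.35.

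Surface, secreted and mitochondrial pericyte genes had negative fold changes except Mcam, and none of them passed. Under the alternatives the log2 fold change reached 0.050 for Anpep, 0.051 for Ifitm1 and 0.063 for Art3, so the sign of these 3 is not settled. Vtn, which encodes the matrix protein vitronectin and had the highest level of the class per kilobase of exon (35.9 CPM per kilobase in control mice), stood at 87.7, 76.0, 70.9 and 56.8 CPM in control mice, and 56.9, 70.5, 65.6 and 63.3 CPM in the depleted group. Control mouse 1 was highest, and control mouse 4 and depleted mouse 1 were level at the bottom (log2 fold change -0.19, SE 0.12, adjusted p = 0.629). The aminopeptidase N gene Anpep was at 4.39 ± 0.43 CPM in control mice against 3.72 ± 0.78 CPM after depletion (SD, n = 4 each, as for all values below written with ±). The P-type ATPase gene Atp13a5, a marker of brain pericytes, was among the steadiest, at 12.1 ± 0.37 and 11.4 ± 0.68 CPM (log2 fold change -0.09, SE 0.08). The interferon-induced membrane protein gene Ifitm1 (3.02 ± 0.62 and 2.75 ± 0.59 CPM) and the ADP-ribosyltransferase gene Art3 (3.57 ± 0.94 and 3.24 ± 0.54 CPM) differed by less than their SD. Ndufa4l2, a mitochondrial subunit paralog induced by low oxygen, had the most negative fold change of all members at -0.34 (SE 0.19, 95% interval -0.77 to 0.09, adjusted p = 0.564). It stood at 2.43, 2.12, 1.89 and 2.07 CPM in control mice, and 1.14, 1.71, 1.82 and 2.06 CPM in the depleted group, and depleted mouse 1 alone was far below the others. Higd1b, a hypoxia-induced domain gene of pericyte mitochondria, was at 2.57 ± 0.51 and 2.21 ± 0.19 CPM (log2 fold change -0.21, SE 0.17).

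Of the 4 transcription factor genes, 3 had small negative fold changes and Zic1 stood apart. Tbx18, a T-box factor gene that marks mural cells, was at 3.49, 2.62, 2.87 and 2.77 CPM in control mice, and 2.07, 2.56, 2.31 and 2.74 CPM in the depleted group. The groups overlapped through control mouse 2 and depleted mouse 4 (log2 fold change -0.28, SE 0.15, adjusted p = 0.528). The forkhead genes Foxf2 (4.03 ± 0.52 and 3.44 ± 0.53 CPM) and Foxc1 (7.57 ± 0.72 and 6.83 ± 1.39 CPM), needed for brain pericytes and the meninges, stood at -0.23 (SE 0.15) and -0.15 (SE 0.14); that of Foxc1 reached 0.037 under the alternatives. Of the gap junction genes, Gjc1 stood at 5.54, 4.80, 6.05 and 3.85 CPM in control mice, and 3.84, 3.90, 4.39 and 4.09 CPM in the depleted group. Control mouse 4 lay among the depleted mice, and the other controls lay above them (log2 fold change -0.32, SE 0.15, adjusted p = 0.467). Gja4, a connexin gene of arterioles, was at 2.56 ± 0.65 and 2.65 ± 0.40 CPM (log2 fold change 0.05, SE 0.19).

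**Figure D2:**
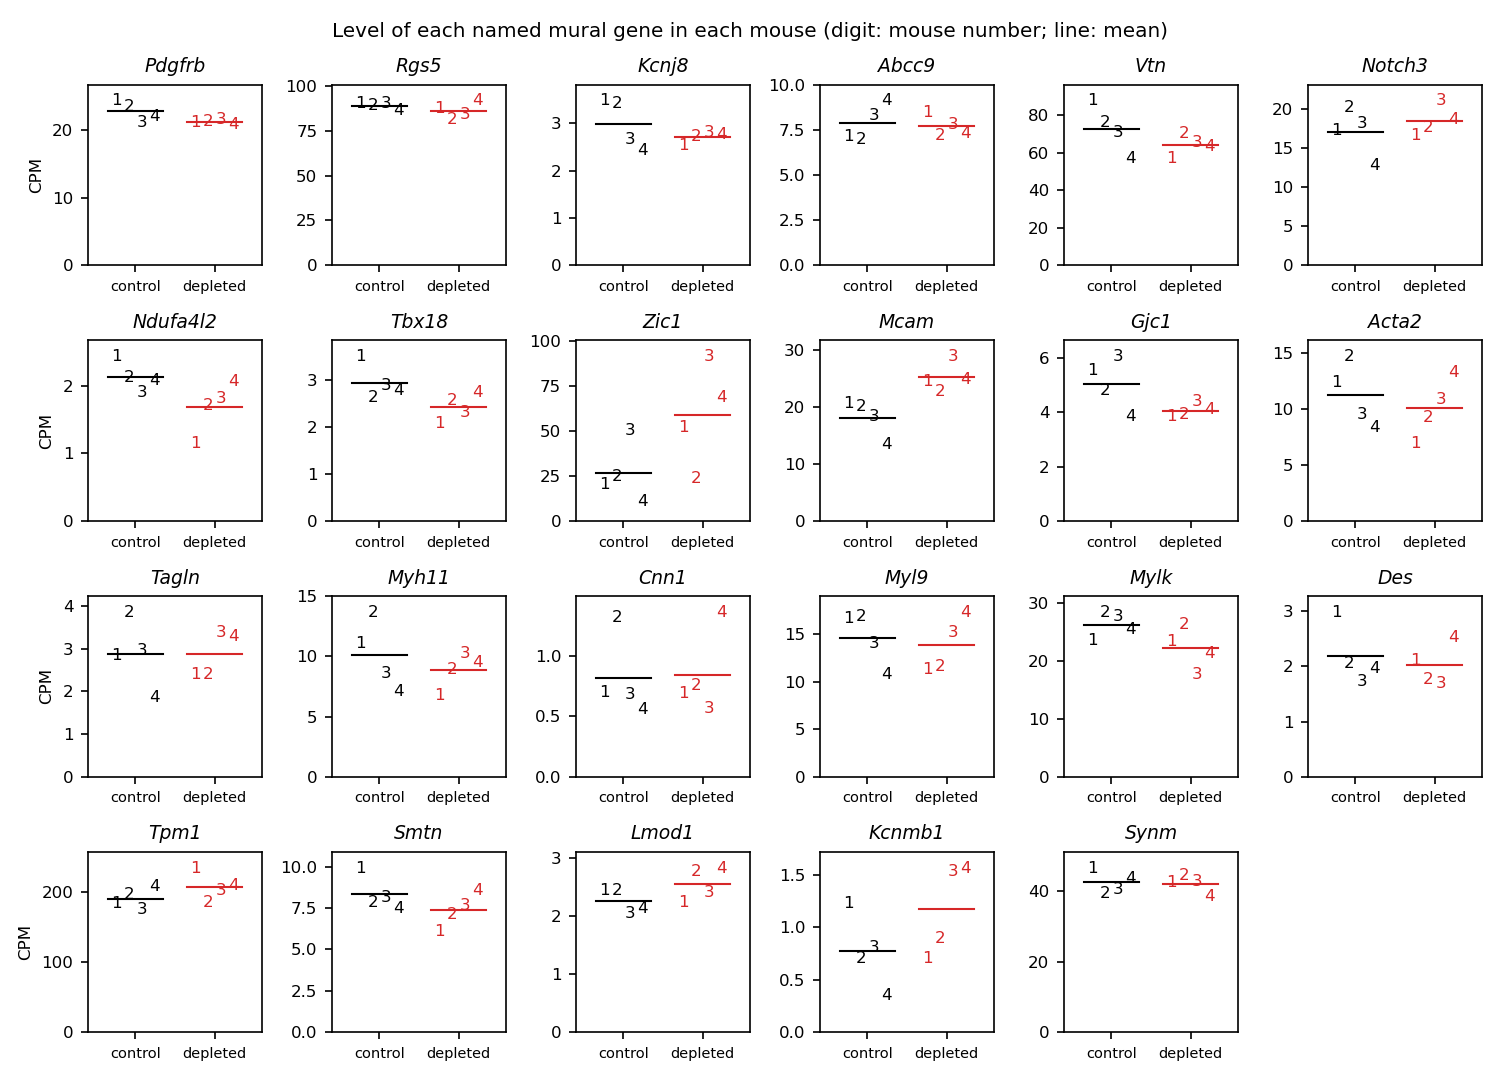
CPM (vertical axes, from 0) of the 23 members singled out by rule, in control (black) and depleted (red) mice; each digit is a mouse and each line a group mean. Mcam is the 1 panel in which the groups do not overlap, and Zic1 shows the widest spread.

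Mcam was the 1 member whose groups did not overlap, against 5.77% of all genes tested (2.28% with all depleted mice higher). It encodes the melanoma cell adhesion molecule of mural and endothelial cells and lies on chromosome 9, 44134469 to 44142727. It stood at 20.7, 20.1, 18.3 and 13.4 CPM in control mice, and 24.5, 22.8, 28.8 and 24.9 CPM in the depleted group. The log2 fold change was 0.48 (SE 0.14, 95% interval 0.18 to 0.78, adjusted p = 0.229 in edgeR). DESeq2 put it past the threshold (adjusted p = 0.0479), in a test that called 346 of 20140 genes lower and 118 higher. The ratio of Mcam to Pdgfrb CPM was 0.850, 0.854, 0.861 and 0.606 in control and 1.16, 1.07, 1.33 and 1.20 in depleted mice. Without control mouse 4, the lowest, the log2 fold change was 0.36 (adjusted p = 0.194). With the striatum list as a covariate it was 0.40 (unadjusted p = 0.0570, adjusted p = 1). It was 0.43 (adjusted p = 0.889) in the mice with Hcrt counts and 0.54 (adjusted p = 0.467) in those without. These edgeR fits on Hcrt counts, with fewer mice per group, were added after seeing the data. The part of tissue composition in this difference was not tested further. Mcam shares exon bases with Gm10687 on the opposite strand, and the strand setting of the counts is not given in the sources used here.

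Zic1, a zinc-finger factor gene of pericytes that neurons and meningeal cells of the forebrain also express, had the largest fold change and the largest spread of the 36 (chromosome 9, 91358058 to 91365810). It stood at 20.4, 24.4, 50.1 and 11.0 CPM in control mice, and 52.1, 23.6, 91.2 and 68.3 CPM in the depleted group. Depleted mouse 2 lay among the controls, and control mouse 3 lay close to depleted mouse 1 (log2 fold change 1.15, SE 0.47, 95% interval 0.09 to 2.21, adjusted p = 0.415). Depleted mouse 2 was also the depleted mouse with the lowest striatum list, at 6.12 against 7.75 to 8.12 in the others. Control mice 1 and 4 had the lowest striatum lists of the controls (4.66 and 5.69), with 20.4 and 11.0 CPM of Zic1. Depleted mouse 3 had the highest list (8.12) and the most Zic1 (91.2 CPM). The order was the same only in part. Control mouse 2 had the highest striatum list of the controls (7.11) with 24.4 CPM of Zic1, and control mouse 3 (6.49) had 50.1 CPM. Depleted mouse 1 (7.83) had less Zic1 than depleted mouse 4, whose list was close to it (7.75). With that list as a covariate the log2 fold change of Zic1 was 0.18 (adjusted p = 1). It was 0.63 (adjusted p = 0.991) in the mice with Hcrt counts and 1.95 (adjusted p = 0.034) in those without. Both of these edgeR fits were added after seeing the data. That without Hcrt counts set control mice 1 and 4 against depleted mice 1 and 4, and called 128 of 20476 genes higher. These mice also differed in the striatum list, at 4.66 and 5.69 in control against 7.83 and 7.75 in depleted mice. In the mice with Hcrt counts that list was at 7.11 and 6.49 in control and 6.12 and 8.12 in depleted mice. The part of this difference in the Zic1 value was not tested. Its neighbour Zic4, which overlaps it on the opposite strand, had the same order at the extremes, from 3.31 CPM in control mouse 4 to 15.6 CPM in depleted mouse 3 (log2 fold change 1.01, adjusted p = 0.410). Zic2, on chromosome 14, was at 18.6 ± 5.01 and 23.1 ± 5.80 CPM with overlapping groups (log2 fold change 0.32, SE 0.21, adjusted p = 0.638). Both were chosen after their values were seen. Which cells carried the Zic1 counts was not tested.

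**Figure D3:**
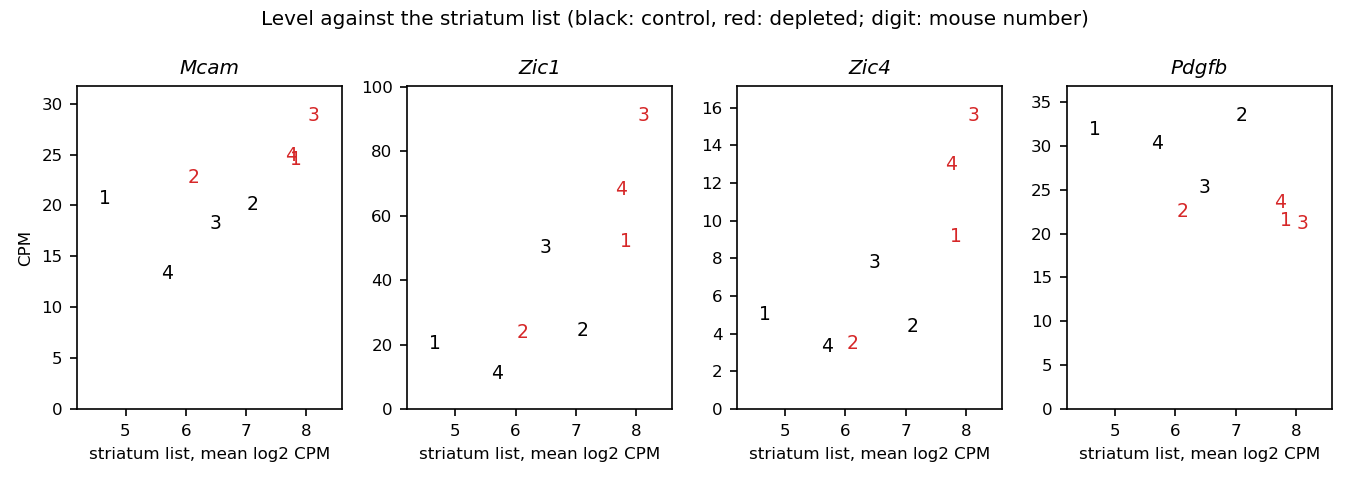
CPM of Mcam, Zic1, its neighbour Zic4 and the ligand gene Pdgfb (vertical axes, from 0) against the mean log2 CPM of the 9 striatum genes (horizontal axes) in each mouse; black digits are control and red digits depleted mice. Zic1 and Zic4 are highest in depleted mice 3 and 4, at the right of the axis, and Pdgfb is lower in all 4 depleted mice.

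Actin and myosin genes of smooth muscle had fold changes between -0.24 and -0.07, and 0 of 4 passed. Acta2, the smooth muscle alpha-actin gene (chromosome 19, 34241090 to 34255590), stood at 12.4, 14.7, 9.56 and 8.36 CPM in control mice, and 6.95, 9.29, 10.9 and 13.2 CPM in the depleted group. Each group spanned most of the other's range (log2 fold change -0.16, SE 0.22, 95% interval -0.65 to 0.34, adjusted p = 0.850). Myh11, the smooth muscle myosin heavy chain gene, stood at 11.0, 13.7, 8.56 and 7.08 CPM in control mice, and 6.71, 8.93, 10.2 and 9.46 CPM in the depleted group (log2 fold change -0.19, SE 0.20, adjusted p = 0.795). Its order among control mice was that of Acta2, and the ratio of Myh11 to Acta2 CPM stayed between 0.714 and 0.966 over the 8 mice. Myl9, the regulatory light chain gene, stood at 16.7, 16.8, 14.0 and 10.7 CPM in control mice, and 11.2, 11.6, 15.2 and 17.3 CPM in the depleted group (log2 fold change -0.07, SE 0.18, adjusted p = 0.922). As for Acta2, control mouse 4 was the lowest control and depleted mouse 4 the highest depleted mouse. Mylk, the myosin light chain kinase gene, had the smallest p of the class and stood at 23.5, 28.4, 27.6 and 25.4 CPM in control mice, and 23.3, 26.4, 17.6 and 21.4 CPM in the depleted group. Depleted mouse 3 was lowest here although it was not low in Acta2, Myh11 or Myl9 (log2 fold change -0.24, SE 0.12, 95% interval -0.51 to 0.02, adjusted p = 0.495). Mylk shares exon bases with 2 antisense transcripts.

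Serum response factor binds the CArG box, whose letters are CC, then bases that are each A or T, then GG. Promoters were searched for this box after Acta2 and Myl9 were seen to put the mice of the depleted group in the same order. That order was picked from these same data. The search covered the 250 bases before the RefSeq start (GRCm38.p6) of the members. Boxes with 1 G or C in the centre were searched for as well, and the pattern is the same on either strand. The wider search was chosen after the exact one had been seen. Promoters of 30 members were matched by symbol. Pdgfrb, Higd1b, Ndufa4l2, Gjc1, Tagln and Myh11 had no promoter sequence at hand and were not searched. The exact box was in 1 of 15 contractile and 0 of 15 pericyte members, against 1.62% of all 27025 genes with a promoter. With 1 G or C allowed it was in 4 contractile members and 1 pericyte member, against 9.78% of all genes. The same order of depleted mice was seen in Crip1, which had a match. It was also seen in Smtn, Tpm2, Kcnmb1 and the pericyte member Atp13a5, which had none. Ndufa4l2, which was not searched, had this order, as did endothelial genes such as Cldn5, Slc2a1 and Sox17. The order was thus not particular to contractile genes. Synm had a match and another order. A match is a description of letters and not a bound site, and a link between order and box was not tested. The matches are shown with flanking bases, 5′ to 3′ on the strand of the gene, the box in capitals.
Acta2, chr19:34255438-34255467, minus strand, box 84 to 75 bases before the start: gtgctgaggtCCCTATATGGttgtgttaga
Acta2, chr19:34255388-34255417, minus strand, box 34 to 25 bases before the start: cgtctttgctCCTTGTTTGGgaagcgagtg
Myl9, chr2:156775293-156775322, plus strand, box 161 to 152 bases before the start: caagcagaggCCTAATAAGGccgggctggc
Myl9, chr2:156775355-156775384, plus strand, box 99 to 90 bases before the start: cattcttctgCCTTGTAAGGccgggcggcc
Crip1, chr12:113151906-113151935, plus strand, box 96 to 87 bases before the start: aaccagatgaCCATTCTTGGccagtcggcc
Crip1, chr12:113151984-113152013, plus strand, box 18 to 9 bases before the start: gggggcggggCCTTAAAGGGcagggccacg
Synm, chr7:67759962-67759991, minus strand, box 239 to 230 bases before the start: caacggggagCCTCATAAGGtgtcccagat
Tbx18, chr9:87731374-87731403, minus strand, box 133 to 124 bases before the start: gattttccgaCCTTGTAAGGaagtgggcgc
The first box of Myl9 is the exact one. The second box of Myl9 and the box of Tbx18 have the same letters.

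The actin-binding genes had fold changes from -0.18 to 0.18. Tagln, the transgelin gene, stood at 2.83, 3.85, 2.96 and 1.85 CPM in control mice, and 2.39, 2.40, 3.38 and 3.29 CPM in the depleted group, with group means of 2.87 CPM each (95% interval -0.51 to 0.50, adjusted p = 0.999). It shares exon bases with Pcsk7 on the opposite strand. Cnn1, the calponin gene, had low values of 0.694, 1.32, 0.680 and 0.555 CPM in control mice, and 0.689, 0.753, 0.563 and 1.36 CPM in the depleted group. With 30 to 66 counts per library, control mouse 2 and depleted mouse 4 were high and the other 6 were alike (log2 fold change 0.04, SE 0.35, 95% interval -0.74 to 0.83, adjusted p = 0.977). Smtn, the smoothelin gene of contractile cells, stood at 9.90, 7.85, 8.16 and 7.47 CPM in control mice, and 6.09, 7.10, 7.63 and 8.58 CPM in the depleted group (log2 fold change -0.18, SE 0.13, adjusted p = 0.667). Control mouse 1 was high and depleted mouse 1 low, and the other 6 overlapped. Lmod1, a leiomodin gene that nucleates actin filaments, stood at 2.43, 2.43, 2.04 and 2.13 CPM in control mice, and 2.23, 2.77, 2.40 and 2.82 CPM in the depleted group (log2 fold change 0.18, SE 0.14, adjusted p = 0.703), and the groups overlapped.

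The tropomyosin and caldesmon genes regulate access of myosin to actin in many cell types. Tpm1, which forebrain cells outside the vessel wall express too, had the highest level per kilobase of the contractile class (29.4 CPM per kilobase in control mice). It stood at 183, 197, 175 and 208 CPM in control mice, and 234, 185, 202 and 208 CPM in the depleted group (log2 fold change 0.12, SE 0.09, adjusted p = 0.656). Tpm2, more restricted to muscle, was at 7.94 ± 1.74 and 8.98 ± 1.51 CPM (log2 fold change 0.18, SE 0.18). The ratio of Tpm1 to Tpm2 CPM was 38.9 in control mouse 4 and 31.2 in depleted mouse 1, and between 19.8 and 23.5 in the other 6 mice. Cald1, the caldesmon gene, was at 28.0 ± 1.38 and 28.1 ± 2.15 CPM (log2 fold change 0.01, 95% interval -0.16 to 0.17).

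Intermediate filament genes link the contractile fibres. Des, the desmin gene, stood at 2.98, 2.06, 1.73 and 1.96 CPM in control mice, and 2.10, 1.77, 1.69 and 2.53 CPM in the depleted group. Control mouse 1 was the highest and the rest overlapped (log2 fold change -0.11, SE 0.21, adjusted p = 0.895). Synm, the synemin gene, also made by astrocytes, stood at 46.6, 39.5, 40.6 and 43.8 CPM in control mice, and 42.5, 44.4, 42.9 and 38.6 CPM in the depleted group (log2 fold change -0.02, SE 0.07, 95% interval -0.18 to 0.14, adjusted p = 0.958).

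The class also held 3 genes that set calcium, potassium and cGMP in smooth muscle, of which 0 passed. Kcnmb1, the smooth muscle subunit gene of the large-conductance calcium-activated potassium channel, had the lowest level per kilobase of all members (0.184 CPM per kilobase in control mice). It stood at 1.22, 0.700, 0.809 and 0.351 CPM in control mice, and 0.707, 0.895, 1.53 and 1.56 CPM in the depleted group. Depleted mice 3 and 4 were above every control and control mouse 4 was below all, on 19 to 106 counts per library (log2 fold change 0.61, SE 0.38, 95% interval -0.25 to 1.46, adjusted p = 0.616). Pln, the phospholamban gene that restrains the calcium pump, was at 1.09 ± 0.31 and 1.01 ± 0.22 CPM (log2 fold change -0.11, SE 0.26). Pde5a, which encodes a phosphodiesterase that breaks down cGMP, was at 7.61 ± 1.81 and 6.56 ± 1.50 CPM (log2 fold change -0.22, SE 0.21). Crip1, a LIM protein gene of smooth muscle, was at 3.69 ± 0.75 and 3.95 ± 0.74 CPM (log2 fold change 0.10, SE 0.19).

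The pericyte and contractile classes were set side by side as a description. Fold changes were negative in 15 of 19 pericyte and 10 of 17 contractile members, against 50.1% of all genes tested. They were also negative in 14 of 18 endothelial genes (median -0.13) and 9 of 12 fibroblast genes (median -0.10), so this was not particular to the pericyte class. The median log2 fold change was -0.14 in the pericyte class and -0.02 in the contractile class, and -0.0004 over all genes tested, whose quartiles were -0.11 and 0.11. Without one library it ran from -0.21 to -0.08 and from -0.16 to 0.01. The mean log2 CPM of the pericyte class was 3.12, 3.01, 3.00 and 2.72 in control mice 1 to 4 and 2.81, 2.86, 3.03 and 3.00 in depleted mice 1 to 4. That of the contractile class was 2.93, 2.92, 2.74 and 2.49 in control and 2.60, 2.71, 2.79 and 2.99 in depleted mice. Within each class the groups overlapped, and the group means differed by -0.04 (pericyte) and 0.002 (contractile), less than the SD of 0.17 and 0.21 among control mice. The contractile minus pericyte difference was -0.19 ± 0.07 in control and -0.15 ± 0.10 in depleted mice. The coefficient of variation among control mice had a median of 17.6% in the pericyte class and 21.9% in the contractile class, and among depleted mice of 10.3% and 18.7%.

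Within each group the same mice were often the lowest or the highest across mural genes. Control mouse 4 was the lowest control in 11 of 19 pericyte and 10 of 17 contractile members, and depleted mouse 1 was the lowest depleted mouse in 10 and 10. Control mouse 1 was the highest control in 13 pericyte members, and depleted mouse 4 the highest depleted mouse in 9 contractile members. Control mouse 4 and depleted mouse 1 also had the lowest mean log2 CPM over 18 endothelial genes (4.05 each, against 4.08 to 4.40 in the other 6), the lowest of their groups over 12 fibroblast genes (2.32 and 2.05), and the lowest mitochondrial shares of all 8 libraries (4.76% and 4.99%, against 5.27% to 6.34%). What these mice share beyond these values was not tested.

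**Figure D4:**
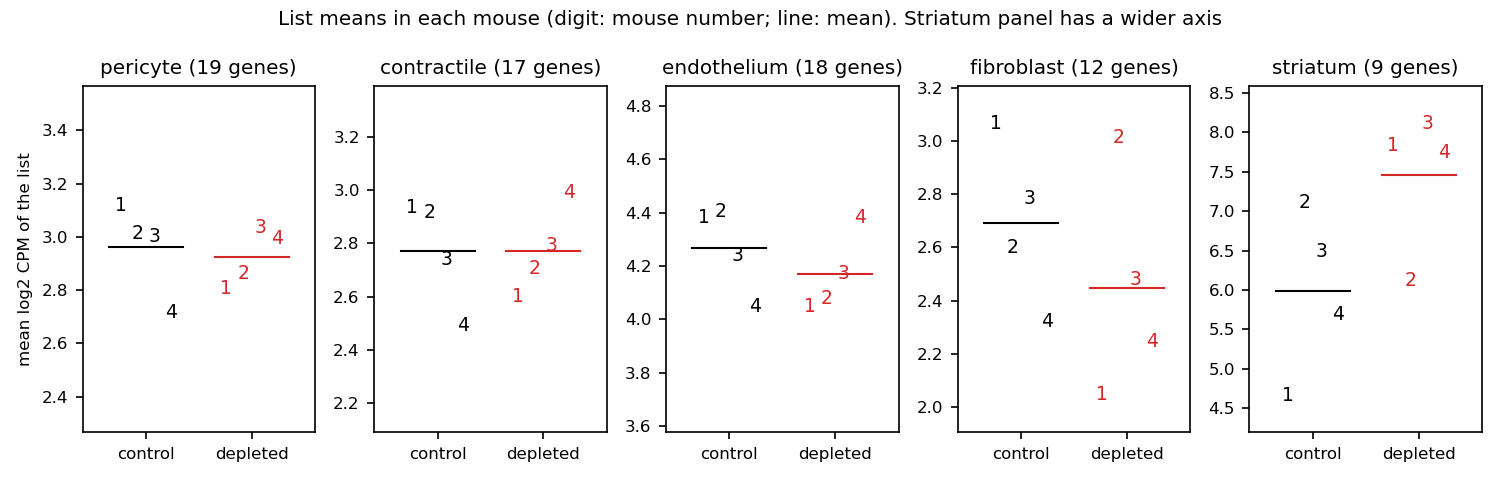
Mean log2 CPM (vertical axes; the first 4 span the same width, the striatum axis is wider) of the pericyte, contractile, endothelium, fibroblast and striatum genes in control (black) and depleted (red) mice; digits are mice and lines are group means. Control mouse 4 and depleted mouse 1 lie low in the first 4 panels, and the groups overlap in all 5.

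Relative to the endothelium of the same library, the contractile genes varied less between mice than on their own. Contractile minus endothelium was between -1.55 and -1.448 in control and between -1.445 and -1.37 in depleted mice, so the groups did not overlap, with almost no gap. The means were -1.50 ± 0.04 and -1.40 ± 0.03, a difference of 0.10 on the log2 scale. On their own, the group means differed by 0.002 for the contractile list and by -0.098 for the endothelium list. The contractile minus pericyte difference overlapped between groups. Of all single genes tested, 5.77% did not overlap. That share is of single genes, and none was computed for differences between list means, so it is no background for this value. Pericyte minus endothelium overlapped, at -1.31 ± 0.07 in control and -1.25 ± 0.10 in depleted mice. Of the 18 endothelial genes 0 passed in edgeR (median log2 fold change -0.13). For Mfsd2a (log2 fold change -0.39) all depleted mice were below all control mice, as in 3.50% of all genes. It was the 1 endothelial gene with an unadjusted p under 0.05, against 11.0% of all genes. Of the 12 fibroblast genes 0 passed and 1 had such a p (median -0.10), with summed levels of 111 to 171 CPM in control mice against 68.6 to 164 CPM after depletion. No fibroblast gene was at 0 in depleted mice. Their part in the mural values was not tested beyond the fit with the fibroblast list as a covariate, in which 0 members passed.

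Of the genes that signal to mural cells, Pdgfb came nearest to the threshold. The 4 PDGF ligand genes had negative fold changes, 0 passed in edgeR, and 1 had an unadjusted p under 0.05. Pdgfb, the endothelial ligand of the pericyte receptor (chromosome 15, 79995874 to 80014977), stood at 31.9, 33.5, 25.2 and 30.2 CPM in control mice, and 21.5, 22.5, 21.1 and 23.6 CPM in the depleted group. The highest depleted mouse was below the lowest control mouse, as in 3.50% of all genes (log2 fold change -0.45, SE 0.09, 95% interval -0.65 to -0.24, adjusted p = 0.0537 in edgeR). It passed in 4 of 20 alternatives, among them DESeq2 (adjusted p = 0.00109) and the fit without control mouse 3 (adjusted p = 0.0089), with a log2 fold change from -0.52 to -0.39 and an adjusted p up to 0.982. Its receptor gene Pdgfrb, in the same libraries, stood at -0.10. Neurons and other cells express Pdgfb as well, and its cell of origin was not tested.

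The other partner lists held 0 genes past the threshold in edgeR; at an unadjusted p under 0.05 there were 4 in the Notch list and 0 in the angiopoietin list. Over all genes tested, 11.0% lay under that p. Of the 4, Notch1, Nrarp (-0.39) and Hes1 (-0.33) had negative and Hey1 (0.17) a positive log2 fold change. Of 13 Notch pathway genes 9 had negative fold changes (median -0.14), against 50.1% of all genes. Notch1, a receptor gene of endothelial and other cells, had the smallest p, at 19.5, 23.5, 23.8 and 23.4 CPM in control mice, and 18.6, 18.5, 19.4 and 17.4 CPM in the depleted group (log2 fold change -0.29, SE 0.08, adjusted p = 0.221). The groups did not overlap, as in 3.50% of all genes with the depleted mice lower, and control mouse 1 was closest to the depleted mice. The angiopoietin list (4 genes, median -0.14) was led by the endothelial receptor gene Tie1, also in the endothelium list, at -0.25 (SE 0.13, adjusted p = 0.501).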

How the data were processed

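The deposited table held raw counts per gene symbol for 8 libraries, not normalized, per the file's values (whole numbers with different totals). The mm10 build and the tools STAR, FastQC, MultiQC, DESeq and DESeq2 are named per the submitters' processing notes. Their versions, the counter, the annotation and the strand setting were not given in the sources used here. Groups and mouse numbers came from the sample titles. Coordinates, exon lengths and overlaps are from GENCODE M21 (same build): 15 members share exon bases with a gene on the opposite strand and 0 on the same strand. Promoters are RefSeq's (GRCm38.p6).

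After filterByExpr and TMM scaling, the depleted and control groups were compared in edgeR 4.0.16 under R 4.3.3 by the quasi-likelihood test (glmQLFit, glmQLFTest), without covariates and with Benjamini-Hochberg adjustment over 20140 genes at 0.05. Standard errors and 95% intervals were derived from each F statistic. Log2 CPM used a prior count of 2. A list's mean is the mean log2 CPM of its genes. A level of 10 counts was 0.146 to 0.206 CPM, and replicate libraries differed by a chi-square per gene of at least 12.3, where sampling noise alone gives about 1. Members, lists and tests were chosen with earlier results of these data known, so no list was tested and medians are descriptions. Members with a value in each mouse were chosen by rule: the 5 smallest p and 3 highest levels per class, and 10 of the defining markers (23 in all). These 10 were Pdgfrb, Rgs5, Kcnj8, Abcc9, Notch3, Acta2, Tagln, Myh11, Cnn1 and Des. In each partner list the gene with the smallest p was taken. One partner list is not reported here. Alternatives used DESeq2 1.42.0, limma-voom 3.58.1, other scalings and filters, covariates, a replicate block and leaving out each mouse; the 3 fits on Hcrt presence (over 100 counts) were added after seeing the data. The fit was tested on simulated counts.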

Additional observations from a re-analysis of the deposited data

Results flagged for a closer look

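Of 76 groups of 4 values examined (each member and both class means in each group), 1 held a mouse far from the other 3 by Dixon's ratio of gap to range, where chance flags about 1 in 20. Tpm2 was at 5.35 CPM in control mouse 4, against 8.62 to 8.98 CPM in the other control mice (ratio 0.902).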

How the results depend on the processing

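Over 20 alternatives, 0 members were called in 18. DESeq2's test called 1 (Mcam) and the fit on the 4 mice without Hcrt counts called 1 (Zic1); leaving out each mouse in turn called 0 to 0. With the replicate block 0 members were called. Mouse numbers did not pair the samples (correlation of same-numbered deviations -0.216, -0.172, 0.368 and -0.0114), and the block moved the number of higher genes among all genes from 11 to 4. In 21 alternatives each, both class medians moved by less than the SD of the class mean log2 CPM among control mice (0.17 and 0.21). They ran from -0.21 to -0.06 (pericyte) and -0.16 to 0.01 (contractile). That SD is larger than the reported medians, so this limit could not settle their sign. Pdgfb passed in 4 of 20. Over all genes 66 to 441 were called lower and 0 to 243 higher, against 223 and 11 as reported: 441 and 243 without depleted mouse 2, 346 and 118 in DESeq2, 184 and 128 in the mice without Hcrt counts, and 66 and 0 in those with them.

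Signs turned in the members below, none of them called; the cause was not tested. With the striatum list as a covariate Notch3 stood at -0.027, Cnn1 at -0.25, Des at 0.084 and Synm at 0.10; with the fibroblast list Tagln at 0.029, Cnn1 at -0.021 and Synm at 0.013. Tagln stood at 0.021 with the replicate block, 0.042 in limma-voom and 0.020 with Hcrt presence as a block. In the mice without Hcrt counts Rgs5 stood at 0.030, Tagln at 0.28 and Myl9 at 0.065; in those with them Cnn1 at -0.60 and Synm at 0.13. Leaving out each mouse gave -0.088 to 0.043 for Abcc9, -0.0026 to 0.20 for Notch3, -0.16 to 0.17 for Tagln, -0.28 to 0.37 for Cnn1, -0.20 to 0.0081 for Myl9, -0.24 to 0.076 for Des and -0.053 to 0.028 for Synm. Among members given by mean only, the range over the alternatives held 0 for Anpep (-0.56 to 0.050), Foxc1 (-0.33 to 0.037), Ifitm1 (-0.28 to 0.051), Art3 (-0.28 to 0.063), Gja4 (-0.061 to 0.24), Cald1 (-0.048 to 0.084), Pln (-0.29 to 0.0034) and Crip1 (-0.030 to 0.21). The filter of 1 CPM in 4 samples removed Cnn1 and Kcnmb1.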
